A study of Mus musculus with 9 samples.

Results

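Cholesterol synthesis and its control by SREBP2 were described here as 31 genes of 24445 in the count table, all of them among the 11622 genes with enough counts to be tested. They were named by their place in the pathway: 18 enzymes from acetoacetyl-CoA to cholesterol, 2 enzymes that branch off towards longer isoprenoids, 6 genes that control SREBP2, and 5 genes that move or store sterols. The list covers only some genes of the pathway, and further steps were read from separate lists. RNA was measured in 9 samples of bone marrow-derived macrophages of wild-type C57Bl/6 mice, which are phagocytes grown from marrow, in 3 groups of 3. The first group received vehicle alone (Veh_N). The next had 1 h of vehicle followed by 24 h of lipopolysaccharide (LPS), the endotoxin of bacterial outer membranes (Veh_LPS). The last had 1 h of D2HG, given as the octyl ester of D-2-hydroxyglutarate, a form that crosses membranes, followed by 24 h of LPS (D2HG_LPS). No group analysed here received the ester without LPS or the octyl ester of another acid, and the doses were not given in the sources used here. No label tells whether the replicates were separate mice or separate dishes, and p-values here therefore cover only sample-to-sample spread, which may be technical.

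Cells make cholesterol from acetyl-CoA through mevalonate, isoprenoid units, squalene and lanosterol. The transcription factor SREBP2 is held in the endoplasmic reticulum by SCAP and the INSIG proteins while sterols are plentiful, and when they run short it is carried to the Golgi, cut by site-specific proteases and sent to the nucleus, where it turns on the genes of the pathway together with NF-Y and SP1. In macrophages the pathway is known to be reset during the response to bacterial products, along with oxysterol synthesis and cholesterol export.

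For 26 of the 31 genes, a promoter window from the RefSeq table of build GRCm38.p6 was searched. No window was searched for Fdft1, Fdps, Npc1, Sqle and Stard4, which does not show that the table held none for them. Motifs were searched on both strands of the 250 bases before each start. They were the sterol regulatory element TCACNCCAC to which SREBP2 binds, its shorter core CACNCCAC, which lies inside it, the NF-Y box CCAAT, the GC box GGGCGG bound by SP1, and the E-box CACGTG. The 6 windows shown are those of members that the results turn on. They set the 3 members that held the sterol element or its core beside 3 members without an exact match to either. The libraries of those 3 did not overlap between the LPS groups. They run 5′ to 3′ along the gene, and capitals mark the sterol element, its core and the NF-Y box on either strand.
Hmgcs1, chr13:119690101-119690350, plus strand: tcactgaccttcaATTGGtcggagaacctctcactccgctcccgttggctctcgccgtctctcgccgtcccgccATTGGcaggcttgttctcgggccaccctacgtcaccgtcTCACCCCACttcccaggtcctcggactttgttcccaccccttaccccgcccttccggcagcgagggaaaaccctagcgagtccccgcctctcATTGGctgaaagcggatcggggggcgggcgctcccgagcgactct
Acat2, chr17:12960726-12960975, minus strand: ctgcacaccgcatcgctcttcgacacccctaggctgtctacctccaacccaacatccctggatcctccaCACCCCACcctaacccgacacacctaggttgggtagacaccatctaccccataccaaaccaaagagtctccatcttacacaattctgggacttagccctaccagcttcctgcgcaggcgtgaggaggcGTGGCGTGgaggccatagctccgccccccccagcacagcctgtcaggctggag
Insig1, chr5:28071162-28071411, plus strand: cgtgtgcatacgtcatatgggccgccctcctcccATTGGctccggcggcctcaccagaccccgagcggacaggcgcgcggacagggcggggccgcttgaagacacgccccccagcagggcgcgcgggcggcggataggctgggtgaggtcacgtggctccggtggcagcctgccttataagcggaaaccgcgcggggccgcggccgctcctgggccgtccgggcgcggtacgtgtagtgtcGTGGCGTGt
Hsd17b7, chr1:169969206-169969455, minus strand: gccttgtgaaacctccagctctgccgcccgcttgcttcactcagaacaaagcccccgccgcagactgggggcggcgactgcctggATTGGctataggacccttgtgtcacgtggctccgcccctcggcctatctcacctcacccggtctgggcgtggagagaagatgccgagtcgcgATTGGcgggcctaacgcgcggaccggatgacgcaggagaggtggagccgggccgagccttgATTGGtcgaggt
Cyp51, chr5:4104698-4104947, minus strand: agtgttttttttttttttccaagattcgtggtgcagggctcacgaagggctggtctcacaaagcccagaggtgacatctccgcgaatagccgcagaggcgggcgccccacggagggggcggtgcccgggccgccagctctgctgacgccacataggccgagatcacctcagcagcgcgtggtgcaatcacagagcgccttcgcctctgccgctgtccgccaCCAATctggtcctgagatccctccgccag
Srebf2, chr15:82147019-82147268, plus strand: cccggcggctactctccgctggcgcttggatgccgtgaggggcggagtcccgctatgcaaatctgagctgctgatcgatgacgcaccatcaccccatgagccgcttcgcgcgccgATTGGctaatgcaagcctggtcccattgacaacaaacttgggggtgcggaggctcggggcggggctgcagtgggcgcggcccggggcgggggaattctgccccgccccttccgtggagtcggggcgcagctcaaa

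The full sterol element was found in 1 window, that of Hmgcs1, from base -137 to base -129 before the start (3.85% of 26 members, against 1.22% of the 27025 genes with a window and 1.19% of the 9345 tested genes with one). The core was found in 3 windows, those of Acat2, Hmgcs1 and Insig1 (11.5%, against 6.51% of tested genes). NF-Y boxes were more frequent, with at least 1 in the windows of 22 members (84.6%, against 40.5% of tested genes). GC boxes were present in 22 members (84.6%, against 63.6% of tested genes) and E-boxes in 6 (23.1%, against 10.2%). Hmgcs1 and Hsd17b7 each held 3 NF-Y boxes, Mvk held 5, and Acat2 held none. A match describes letters only and no binding was measured. Only exact matches were counted, so a window without one may still hold a sterol element with other letters.

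**Figure D1:**
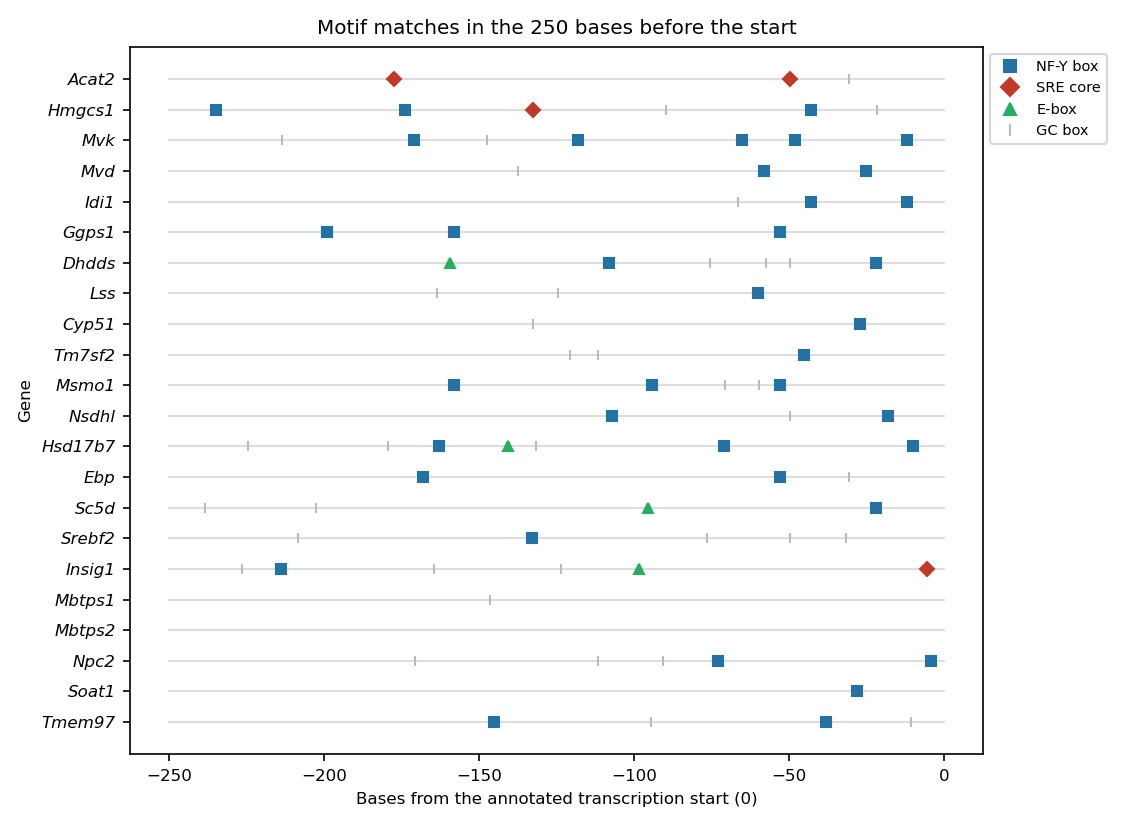
Positions of the motif matches in the 250 bases before the annotated start, for the 22 members with a single promoter window. The horizontal axis is the distance in bases from the start, each row is a gene, and symbols mark the motifs, with the sterol element drawn as its core; NF-Y and GC boxes recur in most rows, and cores stand only in those of Acat2, Hmgcs1 and Insig1.

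Library depth was 9451258 to 13759935 counts with 1 transcript per gene. The 10 macrophage markers summed to 12700 to 16100 CPM (counts scaled by TMM to library size) in every library, and Csf1r, Adgre1 and the other 8 were all expressed. Markers of other cells were low and moved with the groups. Neutrophil markers summed to 69.2 to 80 CPM in Veh_N, 206 to 223 in Veh_LPS and 160 to 177 in D2HG_LPS, with Ly6g, Cxcr2 and Elane under 1 CPM in each group. Dendritic cell markers summed to 2.25 to 3.92, 77.6 to 82.2 and 54.5 to 59.3 CPM, with Flt3, Zbtb46 and Siglech under 1 CPM throughout. Stromal and endothelial markers, mostly Kdr, summed to 8.78 to 11.9, 150 to 169 and 91.4 to 101 CPM, with Pdgfra at 0. Lymphoid markers summed to 8.27 to 11.8, 2.86 to 3.68 and 3.95 to 5.38 CPM. The part of these shifts in the results below was not tested. In bulk samples, fewer cells of a type and less RNA per cell cannot be told apart.

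LPS moved most of these genes, and in both directions. Of the 31 members, 17 were called higher and 9 lower in Veh_LPS than in Veh_N, on a background in which 73.9% of tested genes were called, 35% higher and 38.9% lower (adjusted p below 0.05 in edgeR's quasi-likelihood test, adjusted by the Benjamini-Hochberg method). The median log2 fold change of the members was 0.35, against -0.07 over all tested genes, and single genes ranged from -1.56 (Dhcr7) to 1.51 (Hmgcs1). Among the 18 enzymes of the main route, 12 rose, 3 fell and 3 were not called, with a median of 0.42. Among the other 13 members 5 rose and 6 fell, with a median of -0.35. The calls depended on how libraries were scaled. With upper-quartile scaling 10 members were called higher and 12 lower, and with library totals alone 5 higher and 18 lower, while the share of higher calls among all called genes went from 47.4% to 33.2% and 21.8%. The median gene itself then stood at -0.39 and -0.74. Scaling shifts all genes about alike, so the distance of the member median from the median gene, 0.42, is fixed whatever the scaling and says nothing of its stability.

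The ester under LPS gave small shifts, and few of them reached the threshold. Sqle was the only member called, lower in D2HG_LPS than in Veh_LPS, on a background of 2.11% of tested genes called, 0.955% lower and 1.15% higher (edgeR's quasi-likelihood test). Yet 25 of the 31 members (80.6%) had a negative fold change, against 48.3% of all tested genes, and the member median was -0.25, against 0.01. In 14 members (45.2%) all 3 D2HG_LPS libraries stood below all 3 Veh_LPS libraries, against 12.4% of tested genes. Insig2 alone stood entirely above, against 11.8% of tested genes. At an unadjusted p below 0.05, 15 members (48.4%) were lower, against 7.71% of tested genes, and 1 was higher, against 8.05%. The 18 enzymes accounted for most of this, with 17 negative, 11 of 18 (61.1%) entirely below and a median of -0.32, while the other 13 members had 8 negative, 3 (23.1%) entirely below and a median of -0.03. These shares describe a list chosen with results of these data known. The count of members called moved with the setting. It was 11 with DESeq2, 7 when only the LPS groups entered the fit, 4 with median-ratio scaling and 0 with limma-voom or with library totals alone. Over all tested genes, 343, 253, 157, 131 and 73 were called lower in these settings, against 111 in the main fit. The member count was 8 without Veh_N replicate 1 and 6 without Veh_N replicate 3, where 271 and 216 of all tested genes were called lower. It was 0 without Veh_N replicate 2 or any single LPS-treated library.

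**Figure D2:**
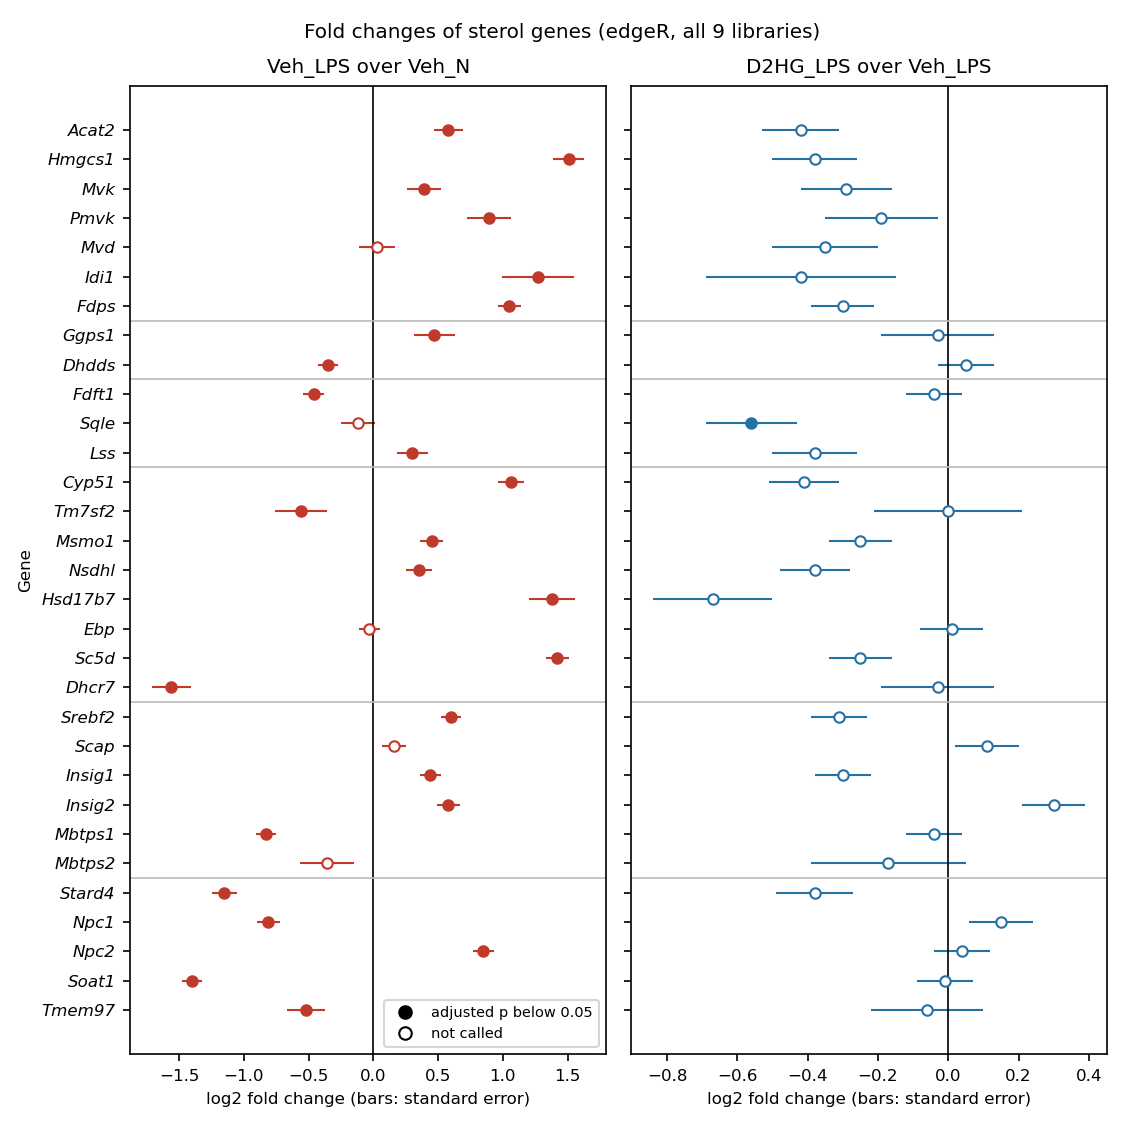
Log2 fold changes of the 31 members, Veh_LPS over Veh_N in one panel and D2HG_LPS over Veh_LPS in the other, with bars of 1 standard error; the panels have different horizontal scales. LPS values spread from -1.56 to 1.51, whereas those of the ester lie between -0.67 and 0.30 and mostly left of 0.

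Among the 7 enzymes that build isoprenoid units, 6 rose with LPS (85.7%, against 35% of tested genes) and none fell with TMM scaling, though with library totals alone only Hmgcs1 and Fdps were called higher and Acat2, Mvk and Mvd had negative values. Hmgcs1, which makes HMG-CoA, was at 138, 121 and 94.6 CPM in Veh_N, at 306, 333 and 367 CPM in Veh_LPS and at 259, 261 and 252 CPM in D2HG_LPS. The 3 groups did not overlap, and D2HG_LPS lay between the others. It rose with LPS by 1.51 ± 0.12 on the log2 scale (SE; edgeR adjusted p = 1.23e-07), and its difference between the LPS groups was -0.38 ± 0.12 (adjusted p = 0.129, not called). This is the member whose window held the full sterol element.

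Acat2, the cytosolic acetoacetyl-CoA thiolase and not a sterol esterifying enzyme, was at 13.8, 13.3 and 15.8 CPM in Veh_N, 21.1, 22.2 and 20.7 CPM in Veh_LPS and 15.7, 15.7 and 16.3 CPM in D2HG_LPS. The Veh_LPS libraries stood apart above, while the other groups overlapped. The log2 fold change was 0.58 ± 0.11 for LPS (edgeR adjusted p = 0.000307) and -0.42 ± 0.11 for the ester (adjusted p = 0.0692). The LPS call was lost with upper-quartile scaling (0.26). Acat3 has a closely similar sequence, so reads may be divided between them. Acat3 had log2 fold changes of 0.50 ± 0.09 and 0.08 ± 0.09 in these comparisons. Fdps, which joins the units into farnesyl diphosphate, was at 27.9, 28.3 and 29.5 CPM in Veh_N, 59.9, 64.1 and 54.1 CPM in Veh_LPS and 47.4, 45.7 and 51.2 CPM in D2HG_LPS. No Veh_N library came near the others, and the LPS groups did not overlap. Fdps rose by 1.05 ± 0.09 with LPS (edgeR adjusted p = 2.79e-07) and differed by -0.30 ± 0.09 with the ester (adjusted p = 0.118).

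The kinases and the decarboxylase of this step gave smaller or noisier values. Mvk, mevalonate kinase, rose by 0.39 ± 0.13 with LPS, a call that was lost without Veh_LPS replicate 1 or with upper-quartile scaling (0.07), and differed by -0.29 ± 0.13 with the ester, where its highest D2HG_LPS library (14.5 CPM) lay just under its lowest Veh_LPS library (14.8 CPM). Pmvk, phosphomevalonate kinase, rose by 0.89 ± 0.17 with LPS and its LPS groups overlapped (-0.19 ± 0.16). Mvd, the decarboxylase that follows, was not called with LPS (0.03 ± 0.14) and stood at 25.9 ± 4.31 CPM in Veh_LPS and 20.4 ± 2.5 CPM in D2HG_LPS (SD, n = 3), with overlapping libraries (-0.35 ± 0.15). Idi1, the isomerase of the C5 units, held only 168 counts in the 9 libraries. It rose by 1.27 ± 0.28 with LPS, and the ester gave -0.42 ± 0.27, a difference that was not detectable at this depth.

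The branch enzymes went in opposite directions with LPS. Ggps1, which makes geranylgeranyl diphosphate for protein prenylation, was called higher with LPS (0.47 ± 0.16, edgeR adjusted p = 0.0176) although 1 Veh_N library at 19.9 CPM exceeded the lowest Veh_LPS library at 18.2 CPM. That call was lost without Veh_LPS replicate 2, without Veh_N replicate 2 or 3, and with upper-quartile scaling or library totals alone. Dhdds, a subunit of the prenyltransferase for dolichol, fell by 0.35 on the log2 scale with LPS, from 43.5, 45.1 and 45.8 to 36.2, 33.7 and 35.6 CPM, and no library overlapped. With the ester Ggps1 differed by -0.03 ± 0.16 and Dhdds by 0.05 ± 0.08, and the LPS groups of each overlapped.

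The only member called with the ester by edgeR acts at the squalene step. Sqle, squalene epoxidase, an oxygen-dependent control point of the pathway, was at 78.3, 68.1 and 56.7 CPM in Veh_N, 54.8, 60.9 and 71.5 CPM in Veh_LPS and 41.3, 39.6 and 46.4 CPM in D2HG_LPS. Veh_LPS and Veh_N libraries covered each other (-0.12 ± 0.13, edgeR adjusted p = 0.418), though Sqle was called lower with LPS with upper-quartile scaling (-0.44) and library totals (-0.79). Each D2HG_LPS library lay below all 6 others. Sqle fell by 0.56 on the log2 scale with the ester (SE 0.13; edgeR adjusted p = 0.0498), a 32.1% decrease, and D2HG_LPS was lower than Veh_N by a log2 fold change of -0.68 (adjusted p = 0.000437). The call against Veh_LPS sat at the threshold and was lost in 11 of 18 alternatives, among them those without Veh_N replicate 2 or any 1 of the 6 LPS-treated libraries, with values from -0.64 to -0.45 over all alternatives.

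The other enzymes of this step were not called with the ester by edgeR, while DESeq2 called Lss lower. Lss, lanosterol synthase, was at 31.7, 37.8 and 28.7 CPM in Veh_N, 40.7, 38.8 and 41.8 CPM in Veh_LPS and 35.1, 28.3 and 29.7 CPM in D2HG_LPS. Its Veh_LPS libraries were above all others. The log2 fold change was 0.30 ± 0.12 for LPS and -0.38 ± 0.12 for the ester (edgeR adjusted p = 0.13). The LPS call of Lss was lost without Veh_LPS replicate 1 or 3 or Veh_N replicate 1 or 3 and with upper-quartile scaling (-0.02), and with library totals it was called lower (-0.37). Fdft1, squalene synthase, fell by 0.46 on the log2 scale with LPS, from 428 ± 39.1 to 312 ± 6.5 CPM (SD, n = 3), and differed by -0.04 ± 0.08 with the ester. Its exons overlap those of Ctsb, the cathepsin B gene, by 774 bases on the opposite strand. Ctsb held 2072162 counts in the 9 libraries and Fdft1 38263, and the log2 fold changes of Ctsb were -0.11 ± 0.07 and 0.00 ± 0.07. Reads of both genes cannot be told apart, because how the counting treated strand was not given in the sources used here.

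**Figure D3:**
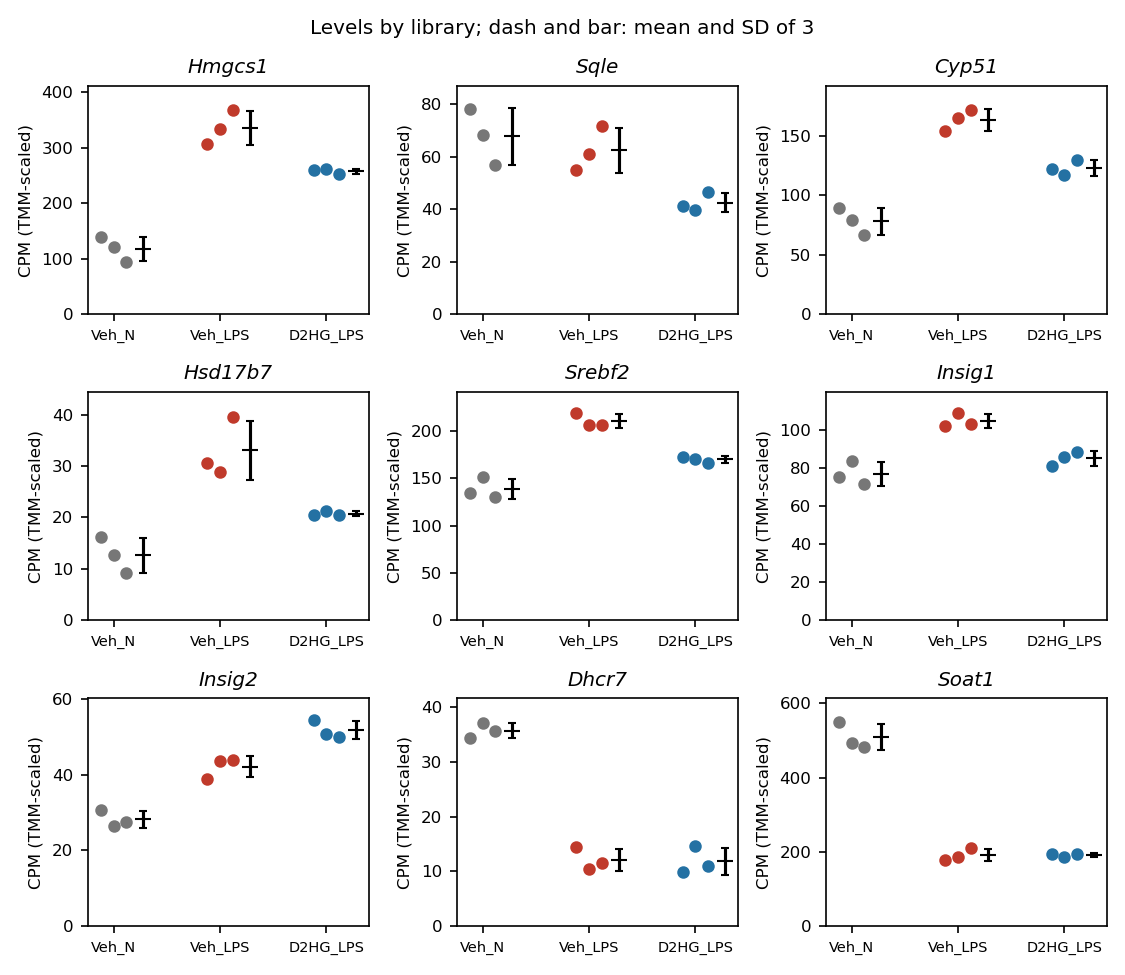
CPM in each library for selected members, with points for libraries, a dash for the mean and a bar for the SD of 3; each vertical axis starts at 0. Sqle is lowest in D2HG_LPS, Hmgcs1 and Cyp51 have D2HG_LPS between the other groups, and Insig2 is highest in D2HG_LPS.

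Between lanosterol and cholesterol, 5 of 8 genes rose with LPS and 2 fell, on a background of 35% higher and 38.9% lower. Without a call by edgeR, 5 stood entirely lower in D2HG_LPS than in Veh_LPS (62.5%, against 12.4% of tested genes). DESeq2 called 3 of these lower, Cyp51, Nsdhl and Hsd17b7. For LPS against Veh_N, Cyp51, Hsd17b7 and Sc5d were still called higher with library totals alone, and Msmo1 and Nsdhl were called lower. Cyp51, the lanosterol demethylase, was at 89.2, 79.3 and 66.4 CPM in Veh_N, 154, 165 and 172 CPM in Veh_LPS and 122, 117 and 130 CPM in D2HG_LPS. All 3 groups were separate. It rose by 1.06 ± 0.10 with LPS (edgeR adjusted p = 8.98e-07) and differed by -0.41 ± 0.10 with the ester (adjusted p = 0.0624). Its exons share 166 bases with those of Akap9 on the opposite strand, and Akap9 had log2 fold changes of 0.76 ± 0.13 and -0.14 ± 0.13.

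Hsd17b7, a ketosteroid reductase that acts after demethylation, showed the most negative value of the ester among members. It was at 16.1, 12.6 and 9.25 CPM in Veh_N, 30.6, 28.9 and 39.6 CPM in Veh_LPS and 20.4, 21.3 and 20.5 CPM in D2HG_LPS. No groups overlapped, and the D2HG_LPS libraries lay within 1 CPM of each other. LPS raised it by 1.38 ± 0.18 (edgeR adjusted p = 1.2e-05) and the ester difference was -0.67 ± 0.17 (adjusted p = 0.0692). Sc5d, the lathosterol desaturase, was at 50.7, 46.4 and 45.2 CPM in Veh_N, 118, 121 and 141 CPM in Veh_LPS and 108, 101 and 112 CPM in D2HG_LPS. It rose by 1.42 ± 0.09 with LPS (edgeR adjusted p = 1.64e-08), and most of that level was present in D2HG_LPS as well (-0.25 ± 0.09).

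Msmo1 and Nsdhl, which remove the methyl groups at carbon 4, rose by 0.45 ± 0.09 and 0.35 ± 0.10 with LPS. In D2HG_LPS all libraries of Msmo1 (137 to 156 CPM) lay below those of Veh_LPS (158 to 186 CPM), a log2 difference of -0.25 ± 0.09. Those of Nsdhl (27.7 to 31.9 CPM against 36 to 40.9 CPM) did too (-0.38 ± 0.10, edgeR adjusted p = 0.0715). Ebp, the sterol isomerase, was called in neither comparison (-0.03 ± 0.08 and 0.01 ± 0.09), with means of 51.8, 50.9 and 51 CPM, though it was called lower with LPS with upper-quartile scaling (-0.35) and library totals (-0.69).

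Dhcr7 and Tm7sf2 fell with LPS. Dhcr7, which makes cholesterol from 7-dehydrocholesterol, was at 34.3, 37.2 and 35.7 CPM in Veh_N, 14.4, 10.4 and 11.5 CPM in Veh_LPS and 9.85, 14.6 and 11 CPM in D2HG_LPS. All 6 LPS-treated libraries lay below every Veh_N library, and the LPS groups covered each other. The log2 fold change was -1.56 ± 0.15 with LPS (edgeR adjusted p = 8.6e-07), the most negative of the members, and -0.03 ± 0.16 with the ester. Tm7sf2, a sterol reductase of the double bond at carbon 14, fell by 0.56 on the log2 scale (SE 0.20), a call that was lost without Veh_LPS replicate 2 or 3 or Veh_N replicate 3, and its LPS groups overlapped.

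**Figure D4:**
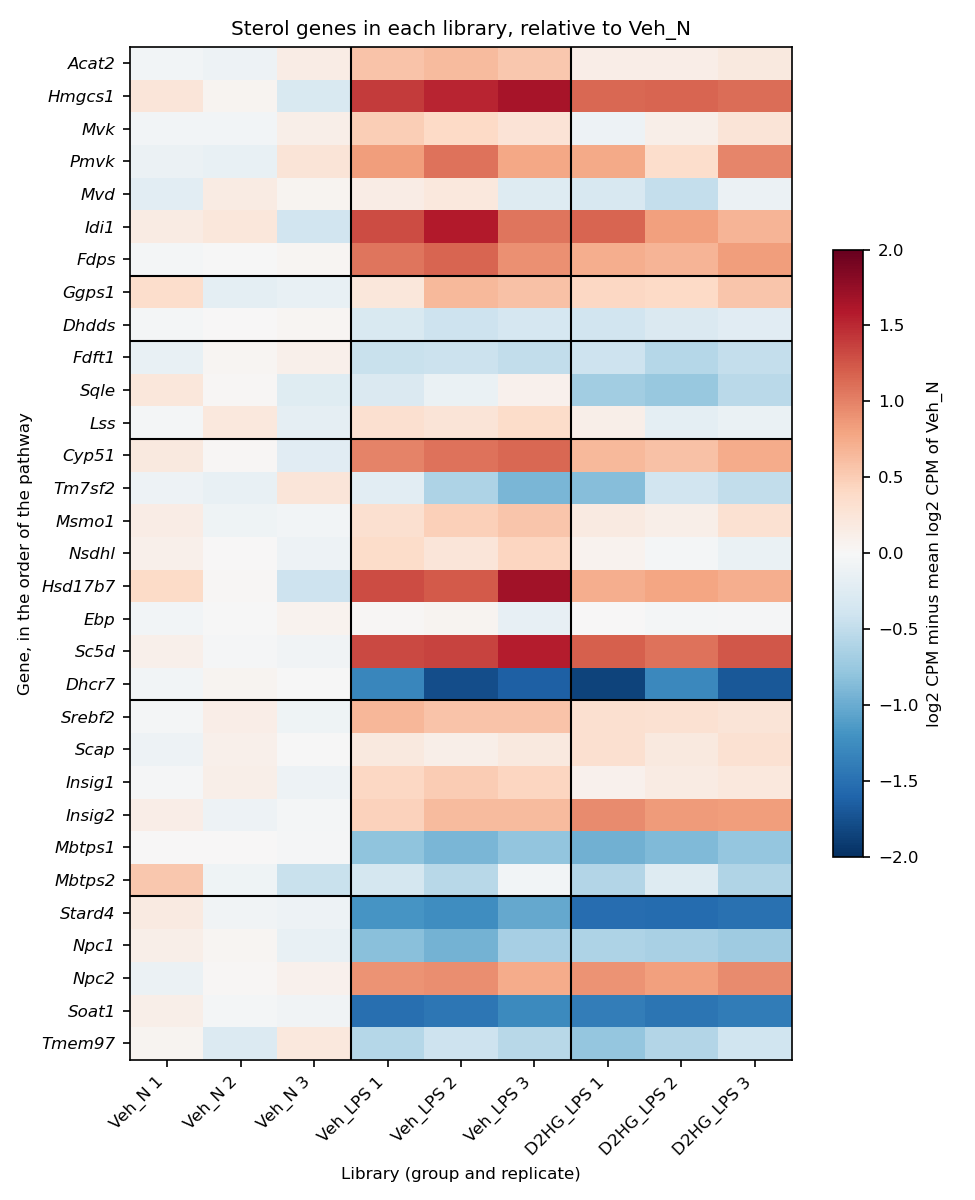
Level of each member in each of the 9 libraries as log2 relative to the mean of Veh_N, with rows in pathway order and columns by group and replicate. Most enzyme rows are raised in the Veh_LPS columns and less so in the D2HG_LPS columns, while Dhcr7, Stard4 and Soat1 are lowered in all LPS-treated columns.

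Of the 6 genes that control SREBP2, 3 rose with LPS (50%, against 35% of tested genes) and 1 fell (16.7%, against 38.9%). None was called with the ester by edgeR. There, at an unadjusted p below 0.05, 2 were lower (33.3%, against 7.71% of tested genes) and 1 was higher (against 8.05%). DESeq2 called Srebf2 and Insig1 lower. Srebf2, which encodes SREBP2, was at 135, 151 and 130 CPM in Veh_N, 219, 206 and 206 CPM in Veh_LPS and 173, 171 and 166 CPM in D2HG_LPS. The groups were separate, with D2HG_LPS between the others. Srebf2 rose by 0.60 ± 0.08 with LPS (edgeR adjusted p = 1.22e-05), though its value was -0.07 with library totals alone, and differed by -0.31 ± 0.08 with the ester (adjusted p = 0.0602).

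Both INSIG genes rose with LPS with TMM scaling. With library totals alone Insig1 was called lower (-0.22) and Insig2 had a value of -0.09, and with upper-quartile scaling the call of Insig1 was lost (0.13). Insig1, itself a target of SREBP2, was at 75.2, 83.5 and 71.6 CPM in Veh_N, 102, 109 and 103 CPM in Veh_LPS and 80.9, 85.5 and 88.4 CPM in D2HG_LPS. Veh_LPS stood above both other groups, which overlapped. Insig1 rose by 0.44 ± 0.08 with LPS (edgeR adjusted p = 0.000315) and differed by -0.30 ± 0.08 with the ester (adjusted p = 0.0927).

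Insig2 had the opposite sign under the ester. It was at 30.8, 26.4 and 27.6 CPM in Veh_N, 39, 43.6 and 43.8 CPM in Veh_LPS and 54.4, 50.8 and 50.1 CPM in D2HG_LPS. Each group was above the one before, with no overlap. The log2 fold change was 0.58 ± 0.09 with LPS (edgeR adjusted p = 9.94e-05) and 0.30 ± 0.09 with the ester (adjusted p = 0.129, not called). The ratio of Insig2 to Insig1 counts, which does not depend on scaling, was 0.409, 0.316 and 0.385 in Veh_N, 0.383, 0.4 and 0.424 in Veh_LPS and 0.673, 0.594 and 0.567 in D2HG_LPS. The D2HG_LPS ratios were the highest of all libraries, by 0.60 over Veh_LPS on the log2 scale. In a two-sided exact permutation test of 3 libraries against 3 this gave p = 0.1, the smallest that design allows, and p = 0.5 for Veh_LPS against Veh_N. This ratio was chosen after its values were seen.

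The escort and the proteases were not called with the ester by edgeR. Scap, which carries SREBP2 to the Golgi, was not called with LPS (0.16 ± 0.09) although all Veh_LPS libraries lay above those of Veh_N, and it differed by 0.11 ± 0.09 with the ester. With LPS it was called higher with median-ratio scaling and DESeq2 (0.22 in both) and lower with library totals (-0.51). Mbtps1, the protease that makes the first cut, fell from 78.1, 78.3 and 76.2 CPM to 44.4, 41.3 and 44.8 CPM with LPS and was at 39.9, 42.1 and 45.3 CPM in D2HG_LPS. LPS lowered it by a log2 fold change of -0.83 ± 0.08 (edgeR adjusted p = 8.78e-07), and the LPS groups overlapped. Mbtps2, the protease of the next cut, varied widely in Veh_N (53.3, 34.6 and 26.9 CPM) and was not called in either comparison (-0.36 ± 0.21 and -0.17 ± 0.22), though it was called lower with LPS without Veh_N replicate 3 (-0.55), with upper-quartile scaling (-0.68) and with library totals (-1.03). Its exons share 2867 bases with those of Yy2 on its own strand, and Yy2 had log2 fold changes of 1.00 ± 0.19 and -0.23 ± 0.19.

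Of the 5 genes that move or store sterols, 4 fell with LPS (80%, against 38.9% of tested genes) and Npc2 rose. Soat1, which esterifies cholesterol for storage in droplets, was at 550, 494 and 483 CPM in Veh_N, 179, 187 and 210 CPM in Veh_LPS and 195, 185 and 193 CPM in D2HG_LPS. It fell by 1.40 on the log2 scale (SE 0.08; edgeR adjusted p = 6.89e-09), and its LPS groups overlapped (-0.01 ± 0.08). Stard4, a carrier of sterols through the cytosol and an SREBP2 target, was at 70.5, 59.5 and 58.4 CPM in Veh_N, 27.7, 26.5 and 30.7 CPM in Veh_LPS and 21.7, 21.5 and 22.3 CPM in D2HG_LPS. LPS lowered it below each Veh_N library, with a log2 fold change of -1.15 ± 0.10 (edgeR adjusted p = 2.94e-07). It was the only member of this group with D2HG_LPS entirely below Veh_LPS, by -0.38 ± 0.11 (adjusted p = 0.0979).

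Npc1 and Npc2 together export cholesterol from lysosomes, and they moved in opposite directions with LPS, although Npc2 was not called with library totals alone (0.18). Npc1, the membrane protein, fell from 407, 385 and 340 CPM to 211, 195 and 238 CPM (log2 fold change -0.81 ± 0.09, edgeR adjusted p = 3.78e-06). Npc2, the soluble partner, rose from 1050, 1160 and 1210 CPM to 2120, 2160 and 1900 CPM (0.85 ± 0.08, adjusted p = 7.72e-07). With the ester they differed by 0.15 ± 0.09 and 0.04 ± 0.08, with overlapping libraries. Tmem97, a membrane protein that binds NPC1, fell by 0.52 on the log2 scale with LPS (SE 0.15) and differed by -0.06 ± 0.16 with the ester.

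Single libraries carried the ester pattern to different degrees. Among the 6 LPS-treated libraries, 11 members had their highest level in Veh_LPS replicate 3, 8 in replicate 2 and 3 in replicate 1, and D2HG_LPS replicates held 4, 1 and 4. The lowest level fell in D2HG_LPS replicates 7, 10 and 5 times and in each Veh_LPS replicate 3 times. The members' median deviation from the mean of the 6 libraries was -0.13, -0.14 and -0.02 (log2) in the D2HG_LPS replicates and 0.06, 0.12 and 0.08 in those of Veh_LPS, against 0.01 or less in size for all genes. D2HG_LPS replicate 3 thus lay nearest to Veh_LPS.

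D2HG_LPS was also set against Veh_N, a comparison that shares its libraries with both of the others. There 12 members were higher and 11 lower, on a background of 72.6% of tested genes called, 35.4% higher and 37.2% lower, with a median of 0.09 against -0.04 for all genes. With library totals alone the counts were 4 and 21. For the 18 enzymes the median was 0.13, with 7 higher and 4 lower.

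Of the 14 members that stood entirely below under the ester, 11 had a promoter window that was searched. Of these, 10 held an NF-Y box, 11 a GC box and 3 the sterol element core. Among all 26 members searched the counts were 22, 22 and 3, and the shares of tested genes were 40.5%, 63.6% and 6.51%. NF-Y and GC boxes were thus also frequent in members that did not stand entirely below. The cores were those of Hmgcs1, of Insig1 at bases -9 to -2, and of Acat2 at -181 to -174 and -53 to -46. Srebf2, Cyp51 and Hsd17b7 held no exact match to the core in these windows, and variants of it were not searched.

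Further genes of sterol metabolism were read from lists chosen with earlier results known. Among genes of other synthesis steps, Lbr, a sterol reductase that shares the reaction of Tm7sf2, was at 49, 44.8 and 42.9 CPM in Veh_N, 30.4, 34.8 and 34.1 CPM in Veh_LPS and 23.6, 26 and 25.2 CPM in D2HG_LPS. The 3 groups did not overlap, and D2HG_LPS was lowest. Lbr fell by 0.46 on the log2 scale with LPS (SE 0.09; edgeR adjusted p = 0.000621) and differed by -0.41 ± 0.10 with the ester (adjusted p = 0.0518, not called). Por, the reductase that passes electrons to Cyp51 and Sqle, fell with LPS by a log2 fold change of -1.40 ± 0.08 and differed by 0.27 ± 0.08 with the ester (adjusted p = 0.119, not called).

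Genes of prenylation, dolichol and ubiquinone, which draw on the same isoprenoids, had no calls with the ester among 15 by edgeR, with none at an unadjusted p below 0.05 either, and 7 rose (46.7%) and 3 fell (20%) with LPS, against 35% and 38.9% of tested genes. Pdss1, which builds the ubiquinone tail, rose most, by 3.01 ± 0.16. Of 12 genes of sterol sensing and degradation at the endoplasmic reticulum, LPS raised 10 (83.3%) and lowered 1 (8.33%), among them the ubiquitin ligase Rnf139 (2.16 ± 0.17). The ester lowered 1 (8.33%, against 0.955% of tested genes), the ligase Rnf145, by a log2 fold change of -0.39 ± 0.08 (edgeR adjusted p = 0.0279). That call was lost without Veh_N replicate 2 or any single LPS-treated library. Of 11 genes of uptake and transport LPS raised 2 (18.2%) and lowered 8 (72.7%). None was called with the ester by edgeR. At an unadjusted p below 0.05, 1 was lower (9.09%, near the 7.71% of tested genes) and 1 higher (against 8.05%). The lower 1 was Gramd1a, a carrier of sterol from the plasma membrane, at -0.41 ± 0.10 (edgeR adjusted p = 0.0607).

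Of 11 genes linked to liver X receptors and efflux, 3 fell with the ester (27.3%, against 0.955% of tested genes called lower). The list was not lowered as a whole. At an unadjusted p below 0.05, 3 were lower and 2 higher, against 7.71% and 8.05% of tested genes. In 4 the D2HG_LPS libraries stood entirely below Veh_LPS and in 2 entirely above, against 12.4% and 11.8%. The median was -0.03. With LPS 4 rose (36.4%) and 5 fell (45.5%), near the 35% and 38.9% of all tested genes. Abca1, the exporter to lipid-poor apolipoproteins, was at 607, 522 and 438 CPM in Veh_N, 114, 111 and 154 CPM in Veh_LPS and 63.8, 65 and 63 CPM in D2HG_LPS. It fell without overlap at each step, by log2 fold changes of -2.05 ± 0.14 and -0.98 ± 0.14 (edgeR adjusted p = 0.00326 for the ester). Abcg1, the exporter to larger lipoproteins, was at 583, 522 and 519 CPM in Veh_LPS and 392, 387 and 345 CPM in D2HG_LPS (-0.53 ± 0.08, adjusted p = 0.00518). Mylip, a ubiquitin ligase for lipoprotein receptors, was the third (-0.52 ± 0.11), and its call was lost when Veh_N replicate 2, Veh_LPS replicate 2 or 3, or any D2HG_LPS replicate was left out. Ch25h, which makes 25-hydroxycholesterol, an oxysterol that blocks SREBP2 processing, rose from under 1 CPM in each Veh_N library to 58.3, 45.7 and 51.4 CPM with LPS, and was at 40.7, 42.6 and 43.4 CPM in D2HG_LPS, all below Veh_LPS (-0.29 ± 0.11, adjusted p = 0.221). It was the only 1 of 5 oxysterol genes to rise with LPS (20%, against 35% of tested genes), while 3 fell (60%, against 38.9%).

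Of 11 fatty acid genes driven by SREBP1, LPS lowered 7 (63.6%) and raised 2 (18.2%), against 38.9% and 35% of tested genes, with Scd2 at -2.35 ± 0.12, Fads1 at -1.75 ± 0.08 and Acsl3 at -3.16 ± 0.18. The ester lowered 1 (9.09%, against 0.955% of tested genes), fatty acid synthase (Fasn). Fasn went from 58.4, 59.9 and 58.6 CPM to 42.4, 38.7 and 38.9 CPM (-0.56 ± 0.10, edgeR adjusted p = 0.00975). That call did not hold when Veh_LPS replicate 1, D2HG_LPS replicate 2 or D2HG_LPS replicate 3 was left out. Acaca, acetyl-CoA carboxylase, and Scd1, the desaturase of stearate, differed by -0.56 ± 0.14 and -0.37 ± 0.09 without a call (adjusted p = 0.063 and 0.0599).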

How the data were processed

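Per the labels' protocols, the 9 samples (3 groups of 3) were extracted by Qiagen RNeasy and sequenced as strand-specific KAPA libraries. The authors deposited raw read counts for 35745 RefSeq transcripts. STAR 2.5.2b, DESeq2 and the builds mm10 and mm9 are named, without roles, per the submitters' processing notes. The counting program, its annotation and how it treated strand were not given in the sources used here. Rows were matched to genes through a RefSeq table (35440) and GENCODE identifiers (188). The 117 unmatched rows, 0.676% to 2.37% of a library, stayed out of library sizes. The transcript with most counts was kept per gene. This bears on 10 members with several transcripts.

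The test was edgeR 4.0.16 (R 4.3.3). Genes passing filterByExpr were scaled by TMM and fitted with glmQLFit (robust) on the 9 libraries together, by group alone, then tested two-sided with glmQLFTest and adjusted by Benjamini-Hochberg over 11622 genes, with calls below 0.05. Standard errors are the fold change over the root of F. Levels are TMM-scaled CPM. Depth of 9451258 to 13759935 counts limits genes with few counts. The fit was also run on counts simulated from its own estimates of spread, with changes larger than most ester shifts of the members. That run was not a test of shifts as small as those.

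Alternatives were other scalings (median-ratio, upper-quartile, totals), DESeq2 1.42.0, limma-voom 3.58.1, no low-count filter, summed transcripts, a replicate block, fits of only the groups compared and leaving out each library. Members and lists were chosen with earlier results of these data known. Genes named are all 31 members and, from each further list, up to 3 of smallest p in either main comparison; in D2HG_LPS against Veh_N, only members called with the ester. Genes sharing exons with a member were named after their values were seen. Promoters come from RefSeq (GRCm38.p6) and exon overlaps from GENCODE. Besides the overlaps named above, exons of Fdps (1124 bases) and Tm7sf2 (14 bases) overlap another gene on the same strand. Those of Hmgcs1, Idi1, Lss, Npc1 and Scap overlap another gene on the opposite strand, so their reads may also be mixed. Some genes of the list of other synthesis steps are not reported here. No between-gene levels were compared, since lengths were not used.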

Additional observations from a re-analysis of the deposited data

How the results depend on the processing

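Depth, unknown strand counting and the absence of an ester-alone group limit these results. With LPS, Hmgcs1, Fdps, Cyp51, Hsd17b7 and Sc5d were called higher, and Dhdds, Fdft1, Dhcr7, Mbtps1, Stard4, Npc1, Soat1 and Tmem97 lower, in all 18 alternatives. No member was called under the ester in all 18. The cause of the changes below was not tested.

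With LPS, members called higher numbered 10 (upper-quartile scaling) and 5 (library totals), against 17, and members called lower 18 (totals), against 9; leaving out single libraries gave 15 to 17 and 8 to 9. Against Veh_N, D2HG_LPS had 4 higher and 21 lower with totals. For the ester, members called lower numbered 4 with median-ratio scaling, 11 with DESeq2, 3 without the low-count filter, 7 with only the LPS groups, and 0 with totals, limma-voom and summed transcripts; leaving out single libraries gave 0 to 8. Genes called with the ester numbered 522 with DESeq2, 450 with only the LPS groups and 64 to 501 without single libraries, against 245. The share called higher among them was 54.7%, and 40.8% (median-ratio), 74.4% (totals) or 34.3% (DESeq2).

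Same-numbered libraries did not deviate together (r from -0.56 to 0.26). Libraries of different numbers gave r from -0.5 (Veh_LPS replicate 2 with Veh_N replicate 1) to 0.63 (Veh_LPS replicate 3 with Veh_N replicate 1). With deviations taken within groups of 3, these values cannot tell whether numbers mark pairs. With the replicate block, the ester gave 93 genes and 0 members called, and LPS 16 members higher. Of the genes named, Sqle, Rnf145 and Mylip lost their ester call and Lss its LPS call; it changed no other call. Not every library correlated best with its own number.

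Signs that reversed were near 0 or followed scaling. With totals, LPS values were Acat2 -0.09, Mvk -0.28, Mvd -0.63, Ggps1 -0.20, Lss -0.37, Msmo1 -0.22, Nsdhl -0.32, Srebf2 -0.07, Scap -0.51, Insig1 -0.22 and Insig2 -0.09, and ester values Ggps1 0.03, Fdft1 0.02, Dhcr7 0.03, Mbtps1 0.03, Tmem97 0.01 and Soat1 0.05. With upper-quartile scaling, Mvd was -0.29, Lss -0.02 and Scap -0.16 with LPS, and Soat1 0.01 with the ester. Ebp was 0.03 with median-ratio scaling and with DESeq2 and 0.02 with only the groups compared (LPS), and -0.03 in the first pair with the ester. Without single libraries, LPS values ranged from -0.06 to 0.05 for Ebp and from -0.06 to 0.18 for Mvd. Ester values ranged from -0.06 to 0.04 for Ebp, -0.06 to 0.06 for Soat1, -0.22 to 0.11 for Dhcr7, -0.15 to 0.05 for Ggps1, -0.09 to 0.01 for Mbtps1, -0.16 to 0.03 for Tmem97, -0.02 to 0.07 for Npc2 and -0.02 to 0.14 for Hsd3b7.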
